A study of Mus musculus with 13 samples.

Results

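The gene expression of the parts of the embryonic lower urinary tract that fluoresced from an Actg2 transgene was compared with that of the dark part lying between them. The arrays were chosen from their labels: 6 of the 13 Affymetrix MOE430 arrays of the study hold RNA of fluorescent tissue (3 of the bladder, 3 of the urethra) and 4 hold RNA of the dark urogenital sinus. The 3 arrays left over hold a reference RNA pooled from 8 whole wild-type FVB/N mice of postnatal day 1 (4 male and 4 female) and entered no test between regions. All 10 region samples came from FVB/N females mated to SMGA/EGFP males and were taken at embryonic day 14, at Theiler stage 21 or 22, with sex recorded as unknown. In the SMGA/EGFP transgene the promoter of Actg2, the gene of smooth muscle gamma-actin, is placed before the gene of EGFP, a green fluorescent protein. Bladder and urethra were cut out by their EGFP signal and the sinus by its lack of it, so all regions carry the transgene and Actg2 itself is tied to the dissection. Samples were not pooled, and no label tells if the regions on different arrays were cut from 1 embryo or several. The p-values therefore reflect only how these samples vary, part of which may be technical.

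The lower urinary tract forms from the endoderm of the cloaca and the mesenchyme around it. Mesenchyme of the bladder wall turns into the detrusor muscle, which stores and expels urine, while muscle of the urethra and the bladder outlet holds it. Smooth muscle contracts through actin and a smooth muscle myosin whose light chain is switched by a kinase and a phosphatase. Its genes are largely driven by serum response factor (SRF), which binds a sequence called the CArG box, together with the coactivator myocardin. The urogenital sinus is known for the prostate buds it forms in males, for the ducts that enter it, and for the pelvic ganglia that lie beside it.

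Values are log2 signal intensities, raised to a floor of 5.65 where lower. A difference is the mean of the bladder and urethra means minus the sinus mean, so that each fluorescent region counts equally, and is given with its standard error (SE) over the 10 arrays. A gene was called at a Benjamini-Hochberg adjusted p under 0.05 in limma's moderated test over 15019 genes. A fold change is 2 raised to that difference. Where an array of the lower group lay under the filter level of 7.39, used in place of a measured detection limit, the fold is a lower bound, computed with such arrays raised to that level.

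A pair of arrays stood apart from the others of their regions. Embryonic globin Hbb-bh1 read 15.04 on sinus 1 and 14.51 on urethra 1 against 7.41 to 10.51 on the other 8 region arrays, and sinus 1 correlated least with the other arrays of its region (mean r 0.889 across genes, against 0.910 to 0.957 elsewhere). Median intensity was 142 to 238 in the bladder, 221 to 378 in the urethra and 259 to 389 in the sinus. The ratio of 3' to 5' actin signal, which rises as RNA or its amplified copy shortens, was highest on bladder 8 (4.04) and urethra 1 (3.42). Every sinus array was thus brighter at the median than every bladder array.

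Genes of the smooth muscle contractile apparatus, such as Actg2, Myh11 and Cnn1, were among the steepest of those that rose in the fluorescent regions. Those that fell included the relaxin receptor Rxfp1, the Wnt antagonist Dkk1 and genes known from neurons, such as Rbfox1 and Nos1. Of 15019 genes, 47 were called (0.313%), 18 of them higher in the fluorescent regions (0.12%) and 29 lower (0.193%). Among them, 44 had a difference from the sinus of the same sign in both regions, as had 7488 of all 15019 genes tested. Of the 44, 16 were higher and 28 lower, and 37 differed by at least 1 in both regions. The exceptions to a shared sign were Clca3b, Ms4a4d and Cldn11, picked out here after their values were seen. Clca3b, a calcium-activated chloride channel accessory gene, read 5.65, 5.65 and 5.65 in the bladder, 8.13, 8.27 and 7.62 in the urethra and 5.92, 5.65, 5.65 and 5.65 in the sinus, so only the urethra carried its difference. Ms4a4d, of a family of membrane proteins that cross the membrane 4 times, read 8.16, 7.75 and 7.62 in the bladder, 5.65, 5.65 and 5.65 in the urethra and 5.83, 5.65, 5.65 and 5.65 in the sinus, above the floor on all bladder arrays and on 1 sinus array. Among the region arrays Clca3b exceeded the filter level only in the urethra and Ms4a4d only in the bladder, where each was high. Cldn11, a tight junction claudin, was low only in the bladder, at 7.35, 7.48 and 8.56 against 12.55, 11.83 and 12.61 in the urethra. Both differences behind a shared direction use the same 4 sinus arrays, and selecting on their mean favours genes in which they share a sign. A shared sign is not a call in each region. Tested alone against the sinus, the urethra had 2 calls, and the larger of the 2 regional p-values gave 0.

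**Figure D1:**
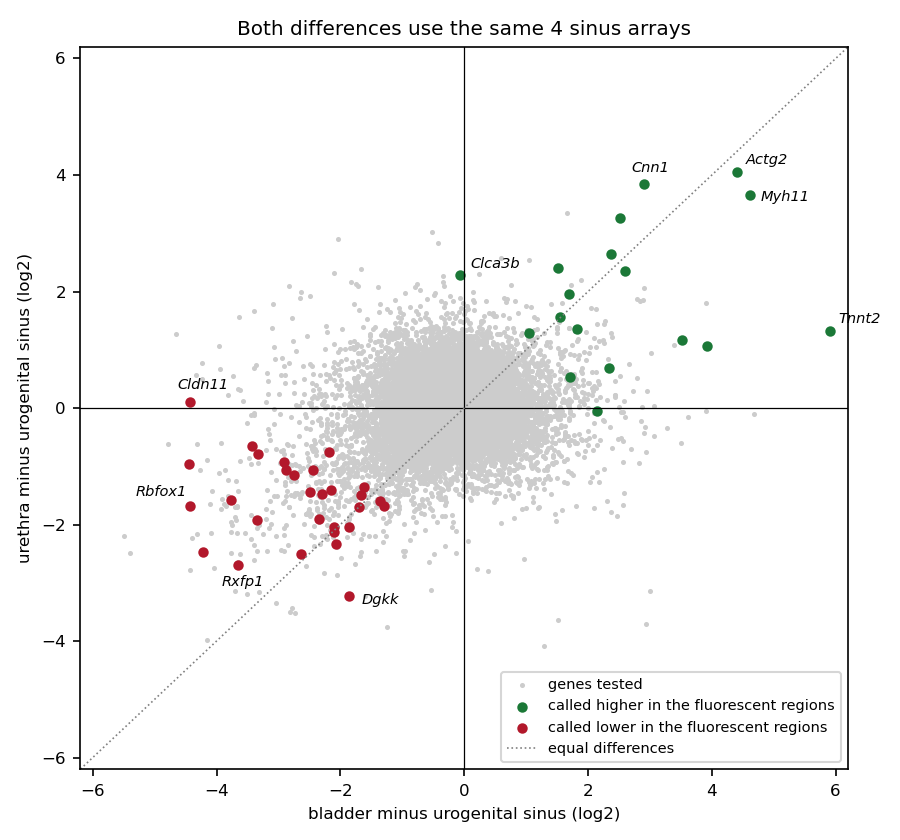
Bladder minus sinus (horizontal) against urethra minus sinus (vertical), both log2, for the 15019 genes tested (grey), with the 18 genes called higher in green and the 29 called lower in red. Most called genes lie in the quadrants where both regions differ the same way, Clca3b, Ms4a4d and Cldn11 lie beside the axes, and 31 of the 44 shared genes lie farther from 0 on the bladder axis.

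The number of calls was fragile. Adjusted p-values of the 47 genes lay between 0.0145 and 0.0475, the next gene just missed the threshold, and 1536 genes had an unadjusted p under 0.05 (10.2%), 561 higher (3.74%) and 975 lower (6.49%). Leaving out 1 array gave 267 calls without sinus 1, 44 without urethra 1, 29 without bladder 8, 15 without sinus 7, 4 without sinus 2, and 2 each without sinus 6 and without urethra 2. It gave 0 without bladder 2, without bladder 6 and without urethra 6, where limma left 1322, 1336 and 1324 genes at an unadjusted p under 0.05. Without both arrays rich in blood RNA, 297 genes were called, 71 higher and 226 lower. The balance of directions moved with the scaling, with 11 higher and 5 lower genes after quantile normalization. It was 23 and 5 with each array centred on its median, which moved the median difference of all genes from -0.04 to 0.32. No gene was called in all 10 of these fits: Pdzk1 was called in 7, and Actg2 and Map3k20 in 5. Each of the 47 genes kept its direction in every setting that tested it, which their selection in large part fixes.

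The contractile apparatus of smooth muscle carried the steepest rises. Actg2, smooth muscle gamma-actin and the gene behind the fluorescence, read 13.97, 13.51 and 13.55 in the bladder, 12.89, 13.65 and 13.40 in the urethra and 8.99, 9.31, 7.99 and 10.77 in the sinus. All 6 fluorescent arrays lay above all 4 sinus arrays, by 4.23 ± 0.45 (SE) or 18.8-fold (limma adjusted p = 0.0208), and sinus 7 was the highest of the dark arrays. This checks the dissection and adds nothing to it, because Actg2 signal chose the tissue. The rise was 4.41 in the bladder and 4.05 in the urethra. Groups without overlap occurred in 282 of all genes tested (1.88%), 116 higher (0.772%) and 166 lower (1.11%), and in 38 of the 47 called, 13 higher and 25 lower.

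Myh11, the smooth muscle myosin heavy chain that pulls on these filaments, read 12.76, 12.39 and 12.70 in the bladder, 10.55, 11.74 and 12.70 in the urethra and 6.34, 7.57, 8.03 and 10.05 in the sinus. The bladder arrays were tight, the urethra arrays spread from 10.55 to 12.70, and the highest sinus array, again sinus 7, fell just short of the lowest urethra array. The difference was 4.14 ± 0.66 (SE), or at least 14.7-fold (adjusted p = 0.0401). Cnn1, calponin, which binds actin and slows its use of myosin, read 9.81, 9.10 and 8.68 in the bladder, 9.04, 10.22 and 11.14 in the urethra and 6.06, 5.65, 5.65 and 7.80 in the sinus. Sinus 2 and sinus 6 were at the floor and no array overlapped, with a difference of 3.37 ± 0.55 (SE) (adjusted p = 0.0401) computed from floored values, or at least 4.51-fold. Myl9, the regulatory light chain whose phosphorylation starts contraction, read 13.78, 11.85 and 12.16 in the bladder, 12.64, 13.29 and 14.12 in the urethra and 10.46, 10.54, 9.49 and 9.82 in the sinus. Every fluorescent array was above every sinus array, by 2.90 ± 0.43 (SE) or 7.44-fold (adjusted p = 0.0401).

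Acta2, smooth muscle alpha-actin, read 15.84, 15.59 and 15.62 in the bladder, 15.80, 16.16 and 15.94 in the urethra and 13.47, 13.06, 12.21 and 14.53 in the sinus. The groups did not overlap and differed by 2.51 ± 0.37 (SE), or 5.70-fold (adjusted p = 0.0401). Its probe set has the suffix of probes shared between transcripts and so may also bind other actin messages, Actg2 among them, while its other kept probe sets differed by 1.14 and 1.96 in the same direction. Ppp1r12b, a subunit that targets the phosphatase to myosin, read 11.67, 11.57 and 11.74 in the bladder, 10.58, 11.39 and 11.58 in the urethra and 9.35, 9.98, 9.80 and 10.20 in the sinus. The groups did not overlap and the difference was 1.59 ± 0.26 (SE), or 3.01-fold (adjusted p = 0.0401), but another kept probe set of the gene differed by -0.81, the opposite way.

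**Figure D2:**
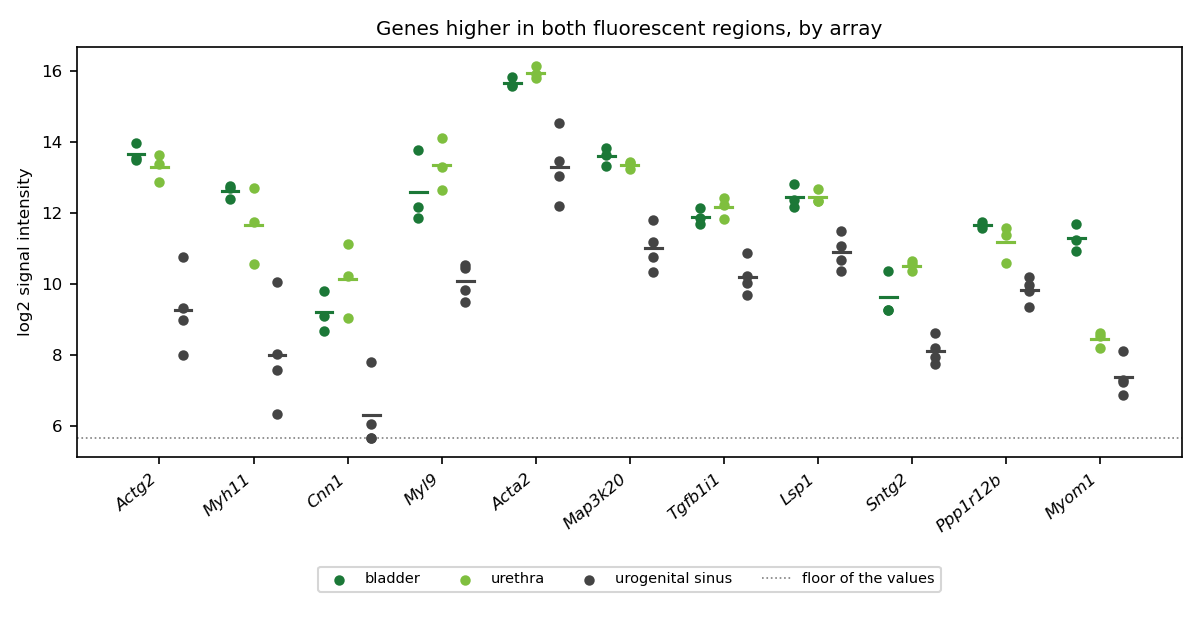
Log2 signal intensity on each of the 3 bladder, 3 urethra and 4 sinus arrays for Actg2 and the 10 called genes without overlap that have the largest smaller difference of the 2 regions; short lines are group means and the dotted line is the floor. The fluorescent arrays lie above the dark ones in each gene because only such genes were drawn, and Myom1 is the one in which all bladder arrays lie above all urethra arrays.

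Across the smooth muscle contractile list, 6 of 21 genes tested were called higher and 0 lower, with a median difference of 1.29 beside -0.04 for all genes tested. At an unadjusted p under 0.05, 19 were higher and 2 lower, beside 3.74% and 6.49% of all genes tested. The list was the highest of 34 by its median in the pooled comparison. Its medians were 1.59 in the bladder and 1.35 in the urethra, beside -0.19 and 0.05 over all genes tested. Its direction is not independent of a dissection guided by Actg2. Genes that missed the threshold ran from -1.45 to 2.86. Tagln (transgelin, an actin-binding protein) was nearest, at 12.13, 11.16 and 12.30 in the bladder, 8.50, 10.26 and 10.55 in the urethra and 7.09, 7.90, 7.89 and 8.96 in the sinus, a difference of 2.86 (adjusted p = 0.0538) in which urethra 1 lay below sinus 7. The 2 members below 0 are both intermediate filament genes: Des, desmin, differed by -1.45 (adjusted p = 0.290) and Synm, synemin, by -1.29 (adjusted p = 0.159). Synm read 6.82, 7.71 and 7.40 in the bladder, 7.01, 7.36 and 7.42 in the urethra and 8.01, 9.31, 8.86 and 8.14 in the sinus, with all sinus arrays above all fluorescent arrays. In number of called members the list went to 10 without sinus 1, stayed at 6 without sinus 7 or urethra 1, was 1 without bladder 8 or sinus 6, and was 0 without any 1 of the other 5 arrays. Its median stayed between 1.24 and 1.71 in those fits. In bulk RNA, fewer muscle cells and less muscle RNA per cell cannot be told apart.

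The promoter sequences at hand allowed a search for the CArG box, in windows of the 250 bases before each RefSeq start (mouse GRCm38.p6). It occurred in 482 of 32851 windows (1.47%), or for 439 of 27025 genes (1.62%). Of the 16 shared higher genes 10 had a window, and 2 of these held the box; of the 28 shared lower genes 19 had a window, and 0 held it. In the contractile list 1 of 18 genes with a window held it (5.56%). The sequences of the 2 genes are shown because they place the box in genes with different regional patterns, Myl9 high in both fluorescent regions and Myom1 highest in the bladder. Both are on the plus strand, with the box in capitals: Myl9 at chr2:156775248-156775367, box 161 to 152 bases before the start, and Myom1 at chr17:71019403-71019522, box 99 to 90 bases before the start.
Myl9: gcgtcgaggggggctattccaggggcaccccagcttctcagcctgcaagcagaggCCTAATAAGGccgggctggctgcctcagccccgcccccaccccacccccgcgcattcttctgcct
Myom1: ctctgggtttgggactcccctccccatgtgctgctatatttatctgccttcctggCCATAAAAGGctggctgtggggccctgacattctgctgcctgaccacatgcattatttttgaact
A match is a description of these letters and not a measured binding site, and a window without one says nothing of binding elsewhere.

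The regulators of the muscle programme moved little as a list, with 1 of 17 genes called and a median of 0.06. Klf4, a zinc finger factor known to repress smooth muscle genes in cultured vascular cells, was the called member and read 13.96, 14.31 and 14.01 in the bladder, 12.21, 12.44 and 12.69 in the urethra and 11.62, 11.12, 11.96 and 12.35 in the sinus. The bladder arrays were far above the rest while urethra 1 lay below sinus 7, so the groups overlapped. The pooled difference was 1.51 ± 0.24 (SE), or 2.84-fold (adjusted p = 0.0401), made up of 2.33 in the bladder and 0.68 in the urethra. The other kept probe set of Klf4 differed by 0.55. Srf, the gene of serum response factor, differed by 1.11 (adjusted p = 0.0865) with no overlap, at 12.86, 12.98 and 12.77 in the bladder, 12.14, 13.25 and 13.09 in the urethra and 11.98, 11.60, 11.70 and 11.70 in the sinus. Myocd, the gene of myocardin, differed by 1.70 (adjusted p = 0.648) and was uneven within regions, at 14.79, 15.11 and 12.93 in the bladder, 10.28, 14.74 and 14.57 in the urethra and 11.57, 10.57, 11.79 and 14.22 in the sinus. Urethra 1 had the lowest Myocd of all region arrays and sinus 7 reached the level of the fluorescent ones.

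Adhesion genes that tie the contractile filaments to the membrane had 2 of 16 members called higher and a median of 0.39. Tgfb1i1 (Hic-5), a LIM protein of focal adhesions, read 12.15, 11.69 and 11.85 in the bladder, 12.23, 11.83 and 12.43 in the urethra and 10.02, 10.86, 9.69 and 10.23 in the sinus. The arrays did not overlap and the difference was 1.83 ± 0.25 (SE), or 3.55-fold (adjusted p = 0.0378). Cav1, caveolin 1, which shapes the membrane pits of smooth muscle, read 14.88, 15.03 and 15.07 in the bladder, 13.79, 13.51 and 14.16 in the urethra and 13.28, 13.13, 13.46 and 13.24 in the sinus. It was highest in the bladder and did not overlap the sinus in either region, with a pooled difference of 1.13 ± 0.16 (SE) or 2.19-fold (adjusted p = 0.0401). Vcl, vinculin, was next at 0.98 (adjusted p = 0.0538).

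Genes known for other settings rose with them. Map3k20, a stress-activated kinase of the MAP kinase cascade, read 13.65, 13.33 and 13.85 in the bladder, 13.45, 13.41 and 13.26 in the urethra and 11.18, 10.33, 10.75 and 11.81 in the sinus. Its fluorescent arrays were close together and all above the sinus arrays, and it differed by 2.48 ± 0.27 (SE), or 5.56-fold (adjusted p = 0.0208), with 3 other kept probe sets at 0.51, 1.06 and 1.39 in the same direction. Sntg2, gamma-2 syntrophin, an adaptor of the dystrophin complex, read 10.36, 9.27 and 9.26 in the bladder, 10.65, 10.55 and 10.36 in the urethra and 7.93, 8.19, 7.73 and 8.60 in the sinus. All fluorescent arrays were higher and the urethra more so, with a difference of 1.96 ± 0.31 (SE) or 3.89-fold (adjusted p = 0.0401). Lsp1, an F-actin-binding protein best known from leukocytes, read 12.82, 12.37 and 12.16 in the bladder, 12.35, 12.69 and 12.35 in the urethra and 11.51, 11.07, 10.67 and 10.37 in the sinus. Its rise was as large in the bladder (1.55) as in the urethra (1.56) and came to 2.93-fold (adjusted p = 0.0401). The macrophage and leukocyte list had 0 of 14 members called (0 at an unadjusted p under 0.05) and a median of -0.09, with a mean level of 8.63 to 9.02 in the bladder, 8.92 to 9.09 in the urethra and 8.45 to 9.50 in the sinus.

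Emilin3, an elastic fibre glycoprotein, read 13.60, 13.22 and 13.17 in the bladder, 13.40, 13.78 and 13.54 in the urethra and 12.55, 12.44, 11.87 and 12.25 in the sinus, a rise of 1.17 ± 0.19 (SE) (adjusted p = 0.0401) without overlap. Serpinb1a, an inhibitor of neutrophil proteases, read 9.49, 9.67 and 8.96 in the bladder, 7.50, 7.25 and 6.33 in the urethra and 5.65, 6.49, 5.65 and 5.65 in the sinus. Sinus arrays were at or near the floor, so its rise was at least 1.75-fold (adjusted p = 0.0353), and urethra 6 lay below sinus 2.

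Of the striated muscle genes, Myom1 and Tnnt2 were the 2 of 15 in the cardiac-type sarcomere list that were called, and the list median was 0.66. Myom1, myomesin, which crosslinks thick filaments at the M-band, read 10.94, 11.23 and 11.70 in the bladder, 8.20, 8.52 and 8.62 in the urethra and 7.29, 7.22, 6.86 and 8.12 in the sinus. No array overlapped, but the bladder rose by 3.92 and the urethra by 1.07, with a pooled difference of 2.49 ± 0.31 (SE) (adjusted p = 0.0311). Tnnt2, cardiac troponin T, read 13.28, 12.70 and 12.48 in the bladder, 7.41, 10.02 and 7.31 in the urethra and 7.68, 5.97, 7.28 and 6.76 in the sinus. Its bladder arrays were all high while 2 of the 3 urethra arrays lay inside the sinus range, so the pooled difference of 3.61 ± 0.57 (SE) (adjusted p = 0.0401) came mostly from the bladder. Urethra 2 was the exception at 10.02, and it was also the array with the most skeletal muscle signal.

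On urethra 2 the mean of the 16 skeletal muscle genes was 9.83, against 6.98 and 7.16 on the other urethra arrays, 6.97 to 8.20 across sinus arrays and 6.51 to 6.92 across bladder arrays. The summed intensity of that list was 4071 to 7166 in the bladder, 3975 to 33075 in the urethra and 3307 to 7993 in the sinus. Its defining genes were also high there: Myog, the muscle differentiation factor myogenin, read 12.23 and Acta1, skeletal actin, 12.24, against 5.86 to 6.32 and 6.41 to 8.27 in the bladder. None of the 16 genes was called, 1 was at an unadjusted p under 0.05, and the list median was -0.14. Without urethra 2, Tnnt2 differed by 3.17 (limma adjusted p = 0.063). Only 2 genes were called in that fit, and Actg2 had the same adjusted p as Tnnt2. The part of skeletal muscle in the difference of Tnnt2 was not tested.

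The 29 genes lower in the fluorescent regions included receptors and secreted regulators of signalling. Gpr165, an orphan G protein-coupled receptor, read 5.65, 5.65 and 5.78 in the bladder, 6.73, 8.02 and 7.54 in the urethra and 11.68, 9.05, 9.52 and 9.39 in the sinus. Bladder arrays were at or just above the floor, under the filter level, urethra arrays lay between, and all sinus arrays were higher, sinus 1 most of all. The difference was -3.35 ± 0.51 (SE), or at least 5.24-fold lower (adjusted p = 0.0401). Rxfp1, the receptor of the hormone relaxin, read 5.65, 5.65 and 7.95 in the bladder, 7.99, 7.12 and 7.03 in the urethra and 10.63, 9.71, 10.003 and 9.95 in the sinus. The sinus arrays were tight near 10 and the fluorescent arrays all below 8, a difference of -3.17 ± 0.48 (SE), or at least 5.61-fold lower (adjusted p = 0.0401).

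Dkk1, a secreted antagonist of Wnt signalling, read 7.47, 7.23 and 7.22 in the bladder, 7.13, 7.93 and 7.04 in the urethra and 8.66, 10.03, 9.20 and 9.73 in the sinus. All 6 fluorescent arrays were below all sinus arrays and the 2 regions overlapped each other, with a difference of -2.07 ± 0.33 (SE), or at least 3.76-fold lower (adjusted p = 0.0401); its other kept probe set differed by -3.28. It was the 1 gene called of 25 in the Wnt list, whose median was -0.34 and turned to 0.01 when arrays were centred on their medians. Dgkk, a diacylglycerol kinase whose gene is linked in people to hypospadias, read 9.32, 8.93 and 9.13 in the bladder, 7.19, 7.85 and 8.23 in the urethra and 10.14, 12.03, 11.45 and 10.32 in the sinus. It was lower without overlap and, unlike most of the lower genes, lowest in the urethra, with a difference of -2.54 ± 0.41 (SE) or at least 5.69-fold lower (adjusted p = 0.0403).

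**Figure D3:**
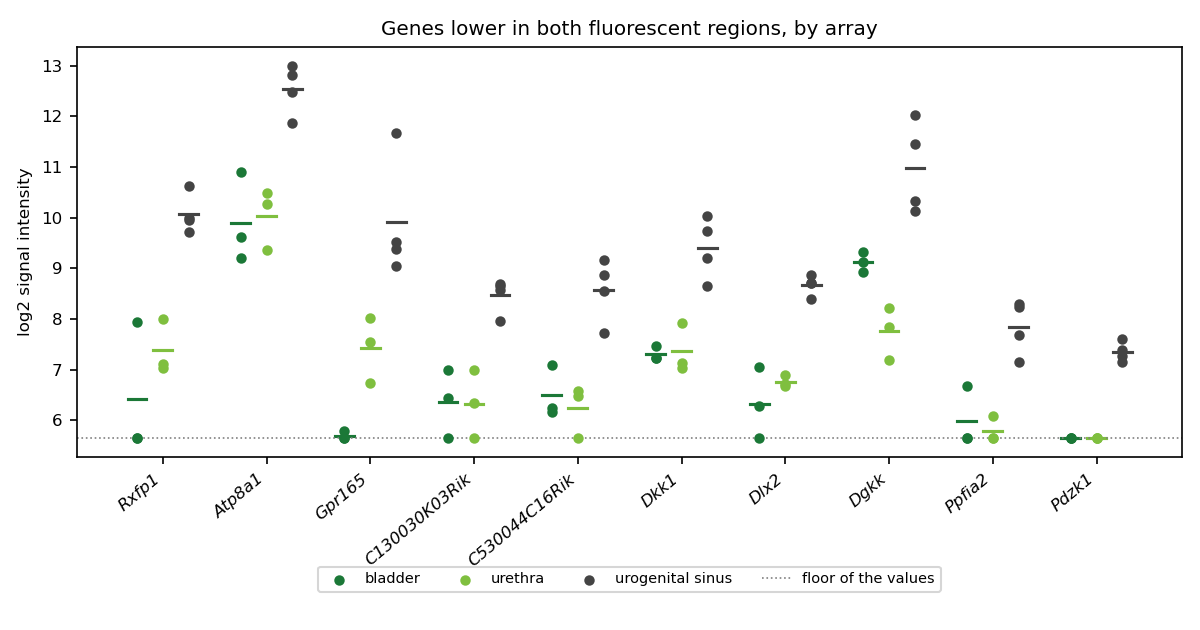
Log2 signal intensity on each array for the 10 called genes without overlap that have the largest smaller difference among those lower in both fluorescent regions; short lines are group means and the dotted line is the floor. The sinus arrays lie above the fluorescent ones in each gene because only such genes were drawn, and Pdzk1 sits at the floor on all 6 fluorescent arrays.

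Dlx2, a homeobox factor of branchial arch and forebrain patterning, read 5.65, 6.28 and 7.06 in the bladder, 6.89, 6.72 and 6.69 in the urethra and 8.39, 8.71, 8.88 and 8.72 in the sinus. The fluorescent arrays were all under the filter level and the sinus arrays close together above it, so it was at least 2.44-fold lower (adjusted p = 0.0353). Atp8a1, a flippase that moves phospholipids across membranes, read 9.20, 9.61 and 10.89 in the bladder, 9.37, 10.49 and 10.27 in the urethra and 11.86, 12.82, 13.002 and 12.49 in the sinus. There was no overlap and a difference of -2.57 ± 0.39 (SE), or 5.94-fold lower (adjusted p = 0.0401), from a probe set of the shared kind. Its 4 other kept probe sets differed by -2.93, -2.82, -2.24 and -0.37.

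Pdzk1, a PDZ scaffold of membrane transporters, was at the floor on all 6 fluorescent arrays and read 7.27, 7.60, 7.15 and 7.39 in the sinus. Its adjusted p was the smallest of all (0.0145), but it rests on dim signal: no fold is given because the sinus mean, too, lay under the filter level, and values at the floor have no spread. Among the region arrays only sinus 2 and sinus 7 exceeded that level, sinus 7 barely. Pdzk1 met the filter through the reference arrays, whose mean was 11.14. Ppfia2, a liprin of synaptic release sites, read 5.65, 5.65 and 6.68 in the bladder, 5.65, 5.65 and 6.09 in the urethra and 7.16, 8.30, 8.24 and 7.69 in the sinus and was at least 1.37-fold lower (adjusted p = 0.0401). The transcripts C530044C16Rik and C130030K03Rik were at least 2.28-fold and at least 2.11-fold lower (adjusted p = 0.0401 and 0.0440). Among the region arrays, Dlx2, Ppfia2 and both of these transcripts exceeded the filter level only in the sinus, where they were high. Their calls are therefore not independent of that filter.

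Neurons were the most marked of the lower gene groups by median, though few members passed the test. All 18 pan-neuronal genes tested were lower in the fluorescent regions. Their median was -2.60, at -3.66 in the bladder and -1.62 in the urethra. Of the 18, 13 had an unadjusted p under 0.05, beside 6.49% lower of all genes tested. Only Rbfox1, a splicing factor of neurons, was called, at 5.85, 6.34 and 7.34 in the bladder, 8.39, 10.09 and 9.29 in the urethra and 10.96, 11.25, 11.09 and 10.46 in the sinus. Its 3 regions did not overlap, with the bladder lowest, all under the filter level, and the sinus highest, and the pooled difference was -3.06 ± 0.41 (SE), or at least 6.13-fold lower (adjusted p = 0.0353). Other kept probe sets of Rbfox1 differed by -0.49, -1.19 and -2.70.

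Sinus 1 stood apart in this list. The list mean was 8.26 on sinus 1 and 11.18 to 12.54 on the other 3 sinus arrays, beside 8.31 to 10.16 across urethra arrays and 7.21 to 8.62 across bladder arrays, and the summed intensity was 3931 to 13642 in the bladder, 11910 to 34287 in the urethra and 10498 to 169937 in the sinus. Stmn2, a growth-associated protein of axons, was at the floor on sinus 1 and urethra 1 and read 12.98 to 14.07 on the other sinus arrays. Without sinus 1, 12 of the 18 genes were called lower and the median was -3.51. Without any 1 of bladder 2, bladder 6, sinus 2, sinus 6, sinus 7, urethra 2 or urethra 6, 0 were called, with medians from -2.85 to -1.93.

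The 18 autonomic neuron genes tested were also all lower, with a median of -1.53. Of the 18, 12 had an unadjusted p under 0.05, beside 6.49% lower of all genes tested. Nos1, which makes nitric oxide as the relaxing transmitter of urethral nerves, was the 1 called, at 8.78, 9.11 and 9.42 in the bladder, 9.04, 9.39 and 9.66 in the urethra and 10.82, 10.90, 10.60 and 10.56 in the sinus. The sinus arrays were close together, sinus 1 included, and all above the fluorescent arrays, with a difference of -1.48 ± 0.24 (SE) or 2.80-fold lower (adjusted p = 0.0401). Slc5a7, the choline transporter of cholinergic nerve endings, differed by -3.24 (adjusted p = 0.131), Vip, a peptide transmitter, by -2.80 (adjusted p = 0.287) and Th, the first enzyme of catecholamine synthesis, by -1.05 (adjusted p = 0.653). Without sinus 1, 7 of the 18 were called lower, without urethra 1 only 1, and without any 1 of the other 8 arrays 0, as under quantile normalization and with arrays centred on their medians. The 9 Schwann and neural crest genes had a median of -0.62, 0 calls and 0 at an unadjusted p under 0.05.

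Further called genes, several of them known from neurons, were also lower. Lrrn3, a leucine-rich membrane protein of neurons, differed by -4.45 in the bladder and -0.96 in the urethra. Lgi1, a secreted synaptic protein, differed by -2.64 overall and Vstm2l by -2.67, with Vstm2l at the floor on all bladder arrays. Dcc, the netrin receptor of growing axons, was low in the bladder (8.63, 9.23 and 9.20) and only just below the sinus in the urethra (11.92, 11.96 and 11.54 against 12.21, 12.32, 12.18 and 13.12). Tubb2b, a tubulin of neurons and progenitors, read 10.72, 10.93 and 11.17 in the bladder, 12.71, 13.28 and 12.78 in the urethra and 13.18, 14.32, 14.32 and 13.61 in the sinus, and the last 2 overlapped. The rest are Syn3 (a synapsin of synaptic vesicles), Nrcam (an adhesion molecule of axons), Ntrk2 (a neurotrophin receptor), the sialyltransferases St8sia1, St8sia3 and St6galnac5, the bicarbonate transporter Slc4a10, the adhesion protein Flrt3, and Slc35f1, Ptchd4 and Ankrd6. Their differences ran from -2.05 to -1.47.

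**Figure D4:**
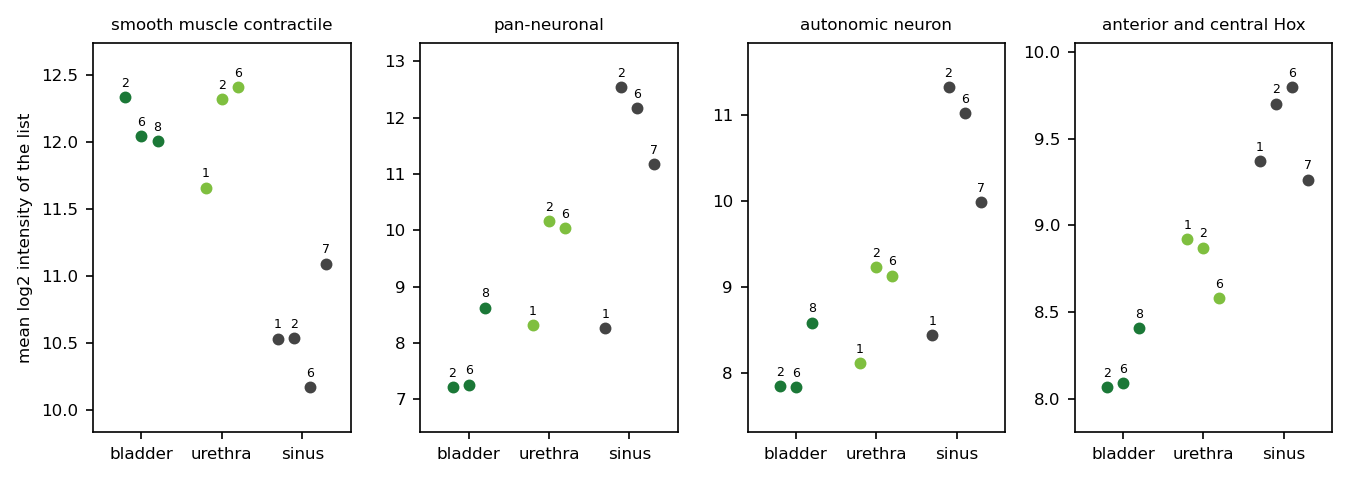
Mean log2 intensity over the genes tested in 4 lists, per array, with the number of each array beside its point. The muscle list separates fluorescent from dark arrays, the neuron lists do so except for sinus 1, and the Hox list places the bladder lowest and the sinus highest.

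Positional genes also leaned to the dark region without calls. All 19 anterior and central Hox genes tested were lower in the fluorescent regions, with a median of -1.13 and 0 called. Of the 19, 10 had an unadjusted p under 0.05, beside 6.49% lower of all genes tested. The mean of the list was 8.06 to 8.41 in the bladder, 8.58 to 8.92 in the urethra and 9.26 to 9.80 in the sinus, with no overlap. Hoxb9 had the smallest p and read 6.52, 5.65 and 6.62 in the bladder, 7.35, 5.74 and 6.63 in the urethra and 7.91, 8.69, 7.94 and 7.13 in the sinus. It differed by -1.50 (adjusted p = 0.180) and overlapped between urethra 1 and sinus 7. For the 9 Hox genes of posterior position the median was -0.53, with 0 calls and 2 at an unadjusted p under 0.05, in which Hoxc10 differed by -1.93 (adjusted p = 0.103) without overlap.

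The 12 nephric and reproductive duct genes were all lower, with a median of -0.98, 7 at an unadjusted p under 0.05 and 0 called. Wt1, a factor of kidney, gonad and mesothelium, had the smallest p, at 8.32, 8.18 and 10.44 in the bladder, 7.41, 8.33 and 6.33 in the urethra and 10.26, 10.62, 11.19 and 10.25 in the sinus, a difference of -2.41 (adjusted p = 0.110) in which bladder 8 alone reached the sinus level. The 14 genital tubercle genes had a median of -1.02 and 0 calls (1 higher and 8 lower at an unadjusted p under 0.05), and most of the difference lay in the bladder, where the median was -1.61 beside -0.19 in the urethra. Over all genes tested the medians were -0.19 in the bladder and 0.05 in the urethra. Of them, 3.74% were higher and 6.49% lower at an unadjusted p under 0.05. Isl1, a LIM homeobox factor of the tubercle, read 10.58, 10.53 and 12.67 in the bladder, 15.67, 14.43 and 14.75 in the urethra and 14.93, 14.90, 14.89 and 14.61 in the sinus, so the difference was -3.57 in the bladder and 0.12 in the urethra. Foxa2, a forkhead factor of endoderm, was near the floor in the bladder (5.65, 6.53 and 5.65), high in the urethra (10.95, 10.44 and 10.27) and high in the sinus (10.16, 10.57, 9.31 and 9.53).

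Among signalling pathways, calls were 0 of 13 for hedgehog (median 0.04), 0 of 18 for BMP (-0.58), 0 of 10 for TGF-beta (-0.14), 0 of 14 for retinoic acid (-0.27) and 0 of 13 for FGF (-0.41). At an unadjusted p under 0.05 the higher and lower members were 1 and 0, 0 and 6, 1 and 2, 0 and 2, and 1 and 3 in that order, beside the 3.74% higher and 6.49% lower of all genes tested. Msx1, a homeobox target of BMP signalling, lay lower on all 6 fluorescent arrays, with 7.63, 7.78 and 8.19 in the bladder, 8.39, 8.66 and 8.25 in the urethra and 9.01, 9.97, 9.47 and 9.20 in the sinus. Its difference was -1.26 (adjusted p = 0.104). Tgfb2, a TGF-beta ligand, also lay lower on every fluorescent array, by -1.28 (adjusted p = 0.267), and Fgf9, an FGF ligand, differed by -1.96 (adjusted p = 0.198). Crabp1, which binds retinoic acid in the cell, was low only in the bladder (5.65, 5.65 and 7.09) against 9.80, 9.80 and 8.70 in the urethra and 9.26, 10.41, 9.72 and 8.68 in the sinus.

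Genes of muscle excitability and relaxation had 0 of 14 called and a median of 0.52, with 2 higher and 1 lower at an unadjusted p under 0.05. Kcnma1, the large-conductance potassium channel, had the smallest p and a difference of -1.33 (adjusted p = 0.359). Other kept probe sets of Kcnma1 differed by -2.54, -1.37 and -1.88. Kcnmb1, the smooth muscle subunit of that channel, differed by 1.00 (adjusted p = 0.454). Extracellular matrix genes had 0 of 27 called, 5 higher at an unadjusted p under 0.05, and a median of 0.30. Mfap5, a microfibril protein, came closest at 11.74, 12.42 and 12.43 in the bladder, 8.95, 10.24 and 10.46 in the urethra and 8.33, 8.18, 9.46 and 9.26 in the sinus, a difference of 2.24 (adjusted p = 0.0538) in which urethra 1 fell inside the sinus range. Cell cycle genes had 0 of 20 called and a median of 0.36, with 17 of 20 above 0 and 5 at an unadjusted p under 0.05. Of all genes tested, 3.74% were higher and 6.49% lower at that level. Cdk1, the kinase of mitotic entry, was higher on all fluorescent arrays, with a difference of 0.96 (adjusted p = 0.152).

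**Figure D5:**
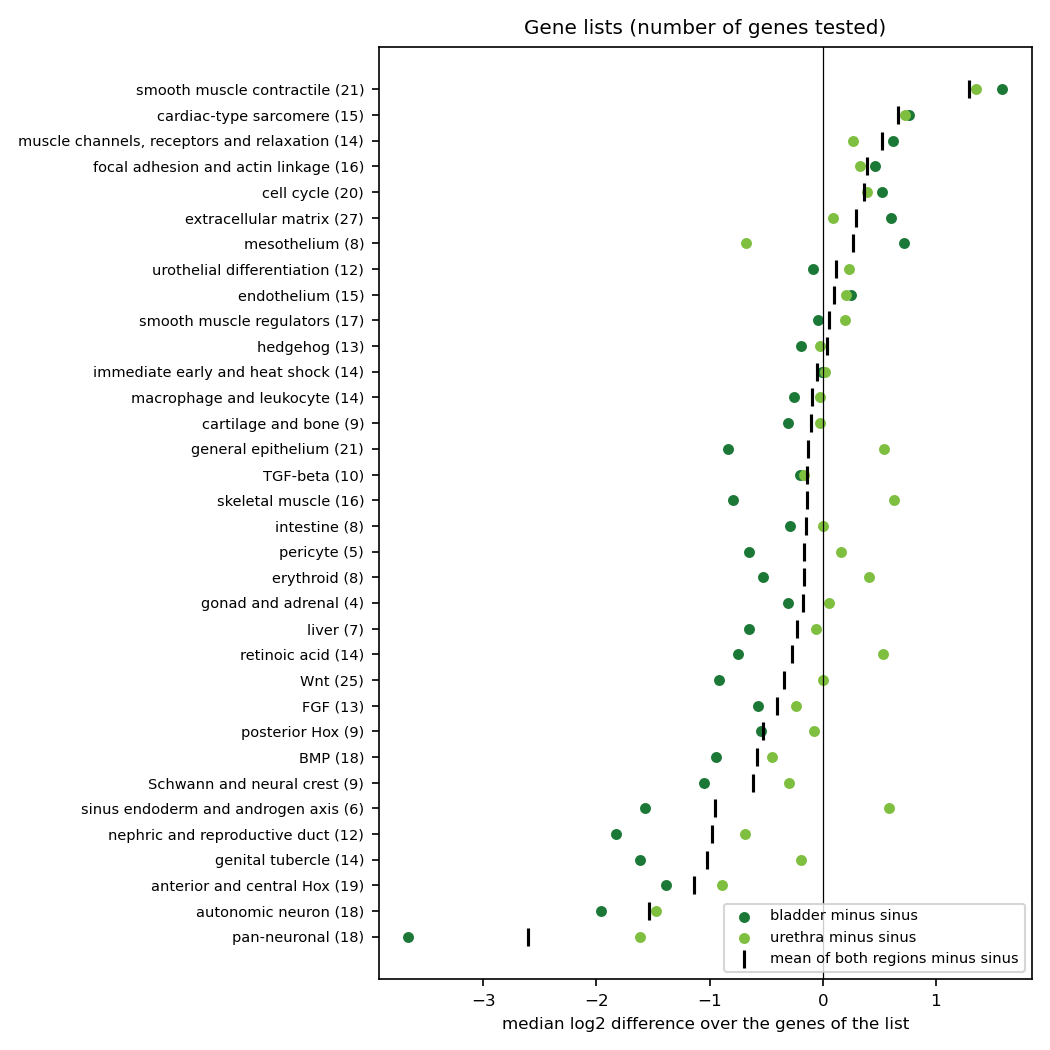
Median log2 difference from the sinus over the tested genes of each of 34 lists, for the bladder (dark green), the urethra (light green) and the mean of both (black bar), ordered by the last. The smooth muscle contractile list lies farthest to the right and both neuron lists lie to the left in both regions, while epithelium, skeletal muscle and sinus endoderm lie left in the bladder and right in the urethra.

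The other cell types that the dissections could hold had 0 called members each. Median differences were -0.13 for 21 epithelial genes, 0.12 for 12 urothelial, 0.10 for 15 endothelial, -0.16 for 5 pericyte, 0.27 for 8 mesothelial, -0.17 for 8 erythroid, -0.10 for 9 cartilage and bone, -0.15 for 8 intestinal, -0.17 for 4 gonadal and adrenal and -0.23 for 7 liver genes. At an unadjusted p under 0.05, 1 epithelial, 1 mesothelial, 1 cartilage and 1 intestinal gene were lower, 1 endothelial gene was higher, and urothelial genes had 1 of each. Of all genes tested, 3.74% were higher and 6.49% lower at that level. Signs of such small medians depend on the scaling: 13 of the 34 list medians turned when arrays were centred on their medians and 7 under quantile normalization, all of them lists with a median of 0.34 or less in size. A small median can average regions that lie apart: Krt5, a keratin of basal epithelium, read 8.32, 8.002 and 7.74 in the bladder, 13.87, 11.89 and 13.47 in the urethra and 11.03, 11.87, 11.03 and 11.71 in the sinus, so the pooled difference of -0.86 (adjusted p = 0.488) averaged -3.39 and 1.66. The mean of the epithelial list was 9.89 to 10.55 in the bladder, 11.31 to 12.39 in the urethra and 10.81 to 11.67 in the sinus. Immediate early and heat shock genes had 0 of 14 called, 2 higher at an unadjusted p under 0.05, and a median of -0.05, yet Nr4a3, a nuclear receptor of rapid induction, read 12.07, 12.13 and 12.11 in the bladder against 8.19, 7.45 and 8.38 in the urethra and 9.04, 7.80, 8.99 and 8.61 in the sinus.

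How evenly a gene was shared is described by bladder minus urethra. This contrast is not independent of how the genes were found, since it uses the same variance estimate for each gene and a shared direction limits it, so the share of genes that passed is not set against that of all genes. Of the 44 shared genes 14 were called in it, 5 of the higher and 9 of the lower genes, and 30 were not; over all 15019 genes 651 were called (4.33%). The 5 higher genes were all higher in the bladder. Tnnt2 differed between the regions by 4.58 ± 0.72 (SE) (limma adjusted p = 0.0119) and Myom1 by 2.85 ± 0.39 (SE) (adjusted p = 0.00704). Serpinb1a differed by 2.34 ± 0.40 (SE) (adjusted p = 0.0155), Klf4 by 1.65 ± 0.31 (SE) (adjusted p = 0.0214) and Cav1 by 1.17 ± 0.21 (SE) (adjusted p = 0.0170). The 9 lower genes, Dcc, Lrrn3, Syn3, Tubb2b, Vstm2l, Nrcam, Rbfox1, Slc35f1 and St6galnac5, were all lower in the bladder than in the urethra. Dcc had the smallest adjusted p among them, with -2.78 ± 0.31 (SE) (adjusted p = 0.00317). The contractile genes called did not pass: Actg2 differed by 0.36 ± 0.57 (SE) (adjusted p = 0.724), Myh11 by 0.95 ± 0.83 (SE) (adjusted p = 0.488) and Cnn1 by -0.94 ± 0.69 (SE) (adjusted p = 0.415). Myl9 differed by -0.75 ± 0.55 (SE) (adjusted p = 0.413) and Acta2 by -0.28 ± 0.47 (SE) (adjusted p = 0.732). With SEs up to 0.83 these values do not show that the regions were equal. Tested alone against the sinus, the bladder had 382 calls (2.54%) and the urethra 2 (0.0133%), Pdzk1 and Clca3b, with the sinus arrays shared by both. Both urethra calls rest on values at the floor, which have no spread. Pdzk1 was at the floor on all urethra arrays, and Clca3b on all bladder arrays and 3 sinus arrays.

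Against the reference RNA of whole newborn mice, the 16 shared higher genes had a median of 0.35 in the fluorescent regions and -2.28 in the sinus, and lay above the reference in 10 and 3 genes. The 28 shared lower genes had medians of -1.41 and 0.60, and lay above the reference in 6 genes in the fluorescent regions and in 21 in the sinus. For all genes tested the medians were -0.11 and -0.01. Which side lay higher in the shared genes follows from their selection, so only their levels against the reference are described. Among the named genes, kept probe sets other than the one used gave the same pooled sign for 8 of 9 probe sets of 5 shared higher genes and for 9 of 9 of 4 shared lower genes. In both regions at once the sign was the same for 8 of 9 in each direction. Within Theiler stage 21 (1 bladder, 2 urethra and 2 sinus arrays) and within stage 22 (2, 1 and 2), all 18 higher and 29 lower genes kept their direction, which again their selection on the same arrays in large part fixes. The 3 urethra arrays share their style of sample title with 1 reference array and with no other region array, so among the region arrays urethra and title style cannot be told apart. With title style as a block over all 13 arrays, which the reference arrays then estimate, 5 genes were called. In each of the styles that hold both bladder and sinus, bladder minus sinus kept the pooled sign for 17 of 18 higher and 29 of 29 lower genes. Selection on these same arrays in large part fixes those signs, and they say nothing of the urethra arrays.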

How the data were processed

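The values used are the linear intensity of 45101 probe sets on 13 arrays, as deposited by the authors in 1 table; the array software GCOS is listed in the submitters' processing notes, with no version. Per the labels' protocols, RNA was amplified in 2 rounds and labelled with biotin. How the table was made from the scans is not given in the sources used here. Amplification favours the 3' end, so probe sets far from it lose signal unevenly between arrays.

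Intensity values under the 20th percentile (50.23) were raised to it and log2 was taken. Probe sets with 1 gene symbol and at least 3 arrays above the 40th percentile (167.76) were kept, 33125 in all, and the one with the highest mean stood for each of 15019 genes. The 10 arrays entered 1 limma fit of region means (limma 3.58.1, R 4.3.3, eBayes with an intensity trend, 7 residual degrees of freedom), two-sided. Array number limits the precision. Named genes are Actg2, then up to 10 called genes in each direction without overlap, ranked by the smaller regional difference, and for each list at most 4 of its called genes or, with none, the gene of smallest p. Genes named beyond this rule (Tagln, Des, Synm, Srf, Myocd, Vcl, Kcnmb1, Slc5a7, Vip, Th, Stmn2, Myog, Acta1 and the remaining called genes) were chosen after their values were seen. The genes and the 34 lists (461 genes tested) were chosen with earlier results of these data known, so they give no independent support. The fitting script was checked on simulated data. Alternatives covered scaling, floors, filters, probe set choice, limma settings, stage, title number and title style as blocks (statmod 1.5.0), and each array left out. Detection calls were not analysed here.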

Additional observations from a re-analysis of the deposited data

Results flagged for a closer look

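On a Dixon-type test of the 4 sinus arrays in 40 named genes, 2 genes had an array flagged as apart from the others. Chance passes this test in about 1 of 20 groups, so 2 of 40 is about the rate of chance. Isl1 was lowest on sinus 7 at 14.61, against 14.89 to 14.93 on the other sinus arrays. Tgfb2 was highest on sinus 6 at 13.80, against 13.53 to 13.57.

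In 11 named genes the difference from the sinus was not the same in bladder and urethra, by limma's test of bladder minus urethra. It was larger in the bladder for Tnnt2 (4.58 log2, limma adjusted p = 0.0119), Nr4a3 (4.10, adjusted p = 0.00174), Myom1 (2.85, adjusted p = 0.00704), Mfap5 (2.31, adjusted p = 0.0335), Klf4 (1.65, adjusted p = 0.0214) and Cav1 (1.17, adjusted p = 0.017), with the bladder above the urethra in each. The bladder lay below the urethra for Krt5 (-5.06, adjusted p = 0.00174), Foxa2 (-4.61, adjusted p = 0.00174), Isl1 (-3.69, adjusted p = 0.00851), Crabp1 (-3.30, adjusted p = 0.0167) and Rbfox1 (-2.75, adjusted p = 0.0228). In all 11 genes every bladder array lay on 1 side of every urethra array, which their selection on these same arrays in large part fixes.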

How the results depend on the processing

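The main setting called 47 genes, 18 higher and 29 lower, with 44 shared and 14 of these called between bladder and urethra; the counts below come in that order. Quantile normalization gave 16, 11, 5, 15 and 7, and over the 10 region arrays alone, an alternative chosen after seeing the data, 27, 16, 11, 23 and 8. Centring on array medians gave 28, 23, 5, 28 and 5. No floor gave 75, 26, 49, 73 and 21, and a floor at the 40th percentile 39, 20, 19, 34 and 17. No filter gave 19, 10, 9, 17 and 9, and a filter of 6 arrays 99, 30, 69, 95 and 26. The mean of a gene's probe sets gave 70, 21, 49, 64 and 19, and each probe set tested alone 11, 3, 8, 11 and 6. Robust eBayes gave 95, 30, 65, 91 and 22, and array weights 1579, 491, 1088, 1484 and 283. The 6 fluorescent arrays as 1 group gave 3, 2, 1, 3 and 0. The larger of the 2 regional p-values gave 0 in all 5 counts, with 369 genes at an unadjusted p under 0.05 in limma. Title style as a block gave 5, 4, 1, 5 and 1. Without both arrays numbered 1 the counts were 297, 71, 226, 286 and 51. No intensity trend, the reference mean in the fit and Theiler stage as a covariate gave 55, 50 and 64 calls. Leaving out each array in turn gave 0 to 267 calls, 0 to 50 higher, 0 to 217 lower, 0 to 259 shared and 0 to 55 called between regions. The cause of these moves was not tested.

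The title number as a fixed replicate block gave 3, 2, 1, 3 and 0, and as a random replicate block 174, 54, 120, 161 and 39 (within-block correlation 0.27). Pairing by number was not established: no label says that a number marks a shared embryo or litter, and of 7 same-numbered pairs 5, not all, had deviations correlated above 0.1 (range -0.17 to 0.36), while 1 of 8 arrays correlated best with its own number. Of 829 alternative values of the 26 called named genes, 0 reversed, 427 were counted as unchanged, 400 lost the call and 2 moved in size. The unchanged values include those within 1 Theiler stage, which had no test and were judged only by the size of the difference. Of 447 values of the 14 named genes not called, 0 of the tested ones reversed and 35 passed the threshold. Signal near the floor limits dim genes such as Pdzk1, and 3 or 4 arrays a region limit all calls.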
